A study of Homo sapiens with 4 samples.

Results

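The 9 genes FHIT, WWOX, MACROD2, IMMP2L, LRP1B, DLG2, NAALADL2, CTNNA3 and LSAMP lie at common fragile sites, and the peaks of the cytidine deaminase A3B (APOBEC3B) in them were described here. A peak was assigned to a gene when it overlapped the GENCODE gene body on GRCh38, extended by 3 kb at both ends. The 9 windows covered 14.262 Mb and held 242 of 55486 peaks in OMM2.3 (0.436%) and 523 of 135327 peaks in 92.1 (0.386%) on chromosomes 1 to 22, X and Y. The genes were 9 of 20033 protein-coding genes. They were chosen by name and not by a cutoff on the peak lists, although earlier results of these data were known.

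OMM2.3 and 92.1 are established uveal melanoma cell lines. Chromatin of formaldehyde-fixed cells was precipitated with an antibody against A3B from Abcam or with normal rabbit IgG from CST, which gave 4 groups of 1 library: OMM2.3 A3B, OMM2.3 IgG, 92.1 A3B and 92.1 IgG. The growth conditions were the same for both lines, and no treatment or edited allele was labelled. Each of the 2 deposited peak lists compared the A3B library of a line with its IgG library. With 1 A3B library per line, no difference between lines had a replicate check, and the intervals below cover counting error only.

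Common fragile sites are regions of normal chromosomes where gaps and breaks appear when DNA replication is slowed. Many of them lie in very long genes, in which few replication origins fire and transcription can run through much of the cell cycle. A3B deaminates cytosine to uracil in single-stranded DNA, mostly where the cytosine follows a thymine, so a TC dinucleotide on one strand, read as GA on the other, is its preferred substrate. Tumour genomes often carry internal deletions in FHIT, WWOX and MACROD2.

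The sequences around 5 peak summits are shown because the results below turn on strong peaks, on sites found in both lines and on gene starts, and because none of their 32-base words occurs elsewhere in the genome. Each gives 101 bases of the plus strand of GRCh38 centred on the summit, 5′ to 3′, with TC and GA dinucleotides in capitals.
MACROD2 peak of OMM2.3 that overlapped a 92.1 peak, chr20:15541945-15542045: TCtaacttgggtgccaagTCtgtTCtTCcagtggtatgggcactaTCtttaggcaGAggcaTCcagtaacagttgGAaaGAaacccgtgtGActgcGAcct
NAALADL2 peak of 92.1, chr3:174750258-174750358: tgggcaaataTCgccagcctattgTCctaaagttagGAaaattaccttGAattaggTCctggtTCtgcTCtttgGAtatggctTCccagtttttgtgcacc
DLG2 peak of OMM2.3 that overlapped a 92.1 peak, chr11:84829068-84829168: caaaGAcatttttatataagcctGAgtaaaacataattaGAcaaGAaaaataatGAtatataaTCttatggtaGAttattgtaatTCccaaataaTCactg
WWOX start-site peak of 92.1, chr16:78099320-78099420: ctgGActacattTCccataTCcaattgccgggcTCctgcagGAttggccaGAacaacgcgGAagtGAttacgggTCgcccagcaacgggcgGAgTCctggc
MACROD2 start-site peak of OMM2.3, chr20:13996070-13996170: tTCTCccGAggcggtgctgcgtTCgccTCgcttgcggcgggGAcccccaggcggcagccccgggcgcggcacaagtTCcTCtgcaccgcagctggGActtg
GC content was between 23.8% (DLG2) and 73.3% (the MACROD2 start site), and TC plus GA numbered 90 or 110 per kb in each.

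A3B peaks were not denser in the fragile site genes than in the DNA around them. In OMM2.3 the 9 windows held 242 peaks where the density of the 5 Mb on either side of each gene gave 288.1, a ratio of 0.840 (95% exact interval, 0.731 to 0.961). In 92.1 they held 523 where the flanks gave 576.2, a ratio of 0.908 (0.827 to 0.995). Against the rest of the same chromosomes the ratios were 0.743 (0.652 to 0.843) and 0.884 (0.809 to 0.963). All 4 intervals lay below 1. The peak density was below the flanks in 6 of 9 genes in OMM2.3 and in 8 of 9 in 92.1, where it was in 231 (71.7%) and 221 (68.6%) of the 322 protein-coding genes of at least 500 kb. In neither line was one of the 9 denser than both of its flanks.

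Weighting the flanks to the GC content of each gene moved the summed ratio to about 1 in OMM2.3 and part of the way there in 92.1. GC content was below that of the flanks in 8 of 9 genes, with a median difference of −1.98 percentage points, and only WWOX, at 42.7% against 42.6%, was not lower. The same held in 253 of the 322 long genes, with a median difference of −1.53 points. When the flanks were divided into 10 kb bins and weighted to the GC content of each gene, the ratio over all 9 genes became 1.00 (0.880 to 1.14) in OMM2.3 and 0.946 (0.866 to 1.03) in 92.1. The weighted ratio was below 1 in 5 of 9 genes in OMM2.3 and still in 8 of 9 in 92.1, and the 92.1 value lay within the interval of the plain ratio. Weighted in the same way, the rest of the chromosomes gave 0.986 (0.866 to 1.12) and 0.970 (0.889 to 1.06). These intervals take the expected count as fixed, and all of them include 1. Gene by gene the order ran the other way. The rank correlation of the plain ratio with GC content minus that of the flanks was −0.533 in OMM2.3 and −0.5 in 92.1. Over the 9 genes, those with the larger GC deficit thus tended to have the higher ratios. The part of base composition in the lower counts was not tested further.

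**Figure D1:**
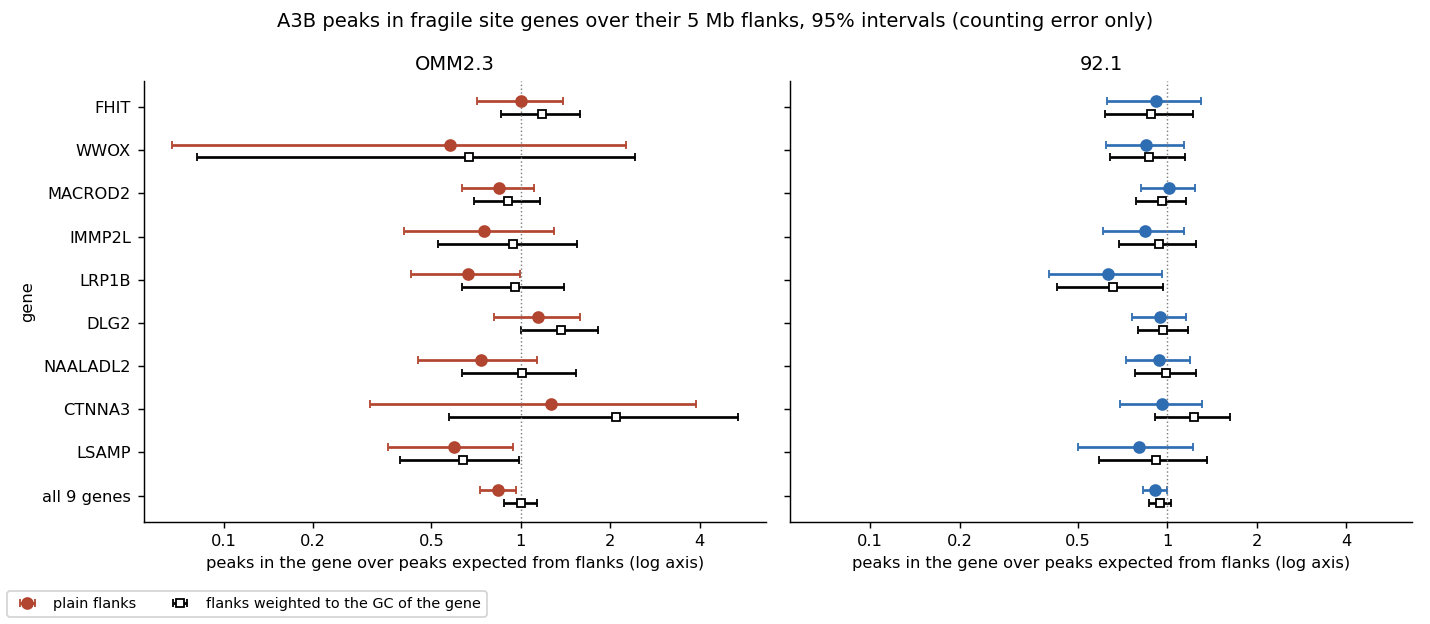
Peaks in each gene divided by the peaks expected from 5 Mb on either side, on a log axis, in OMM2.3 (left) and 92.1 (right), with 95% intervals for counting error. Filled circles use plain flanks and open squares use flanks weighted to the GC content of the gene. The intervals of the open squares take the expected count as fixed. Over all 9 genes the filled circles lie at 0.840 and 0.908 and the open squares at 1.00 and 0.946.

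The ratios of the 9 genes lay among those of other very long genes. Among the 322 protein-coding genes of at least 500 kb, the median ratio to the flanks was 0.775 in OMM2.3 and 0.881 in 92.1, against medians of 0.754 and 0.917 in the 9 genes. In OMM2.3, 1 of 9 fragile site genes (CTNNA3) reached 1.2 times its flanks, where 15.5% of long genes did, and 5 of 9 were at or below 0.8, where 51.6% of long genes were. In 92.1 none of the 9 reached 1.2, where 13.7% of long genes did, and 1 (LRP1B) was at or below 0.8, where 35.1% of long genes were. With GC-weighted flanks the genes at or above 1.2 were CTNNA3 (2.10, 0.572 to 5.38) and DLG2 (1.36, 0.998 to 1.82) in OMM2.3 and CTNNA3 (1.23, 0.913 to 1.63) in 92.1. Those at or below 0.8 were WWOX (0.671, 0.0812 to 2.42, on 2 peaks) and LSAMP (0.640, 0.391 to 0.988) in OMM2.3 and LRP1B (0.656, 0.425 to 0.968) in 92.1. Weighted values were not computed for the other long genes. Every one of the 9 held a peak in both lines, as did 91.6% of long genes in OMM2.3 and 100% in 92.1.

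**Figure D2:**
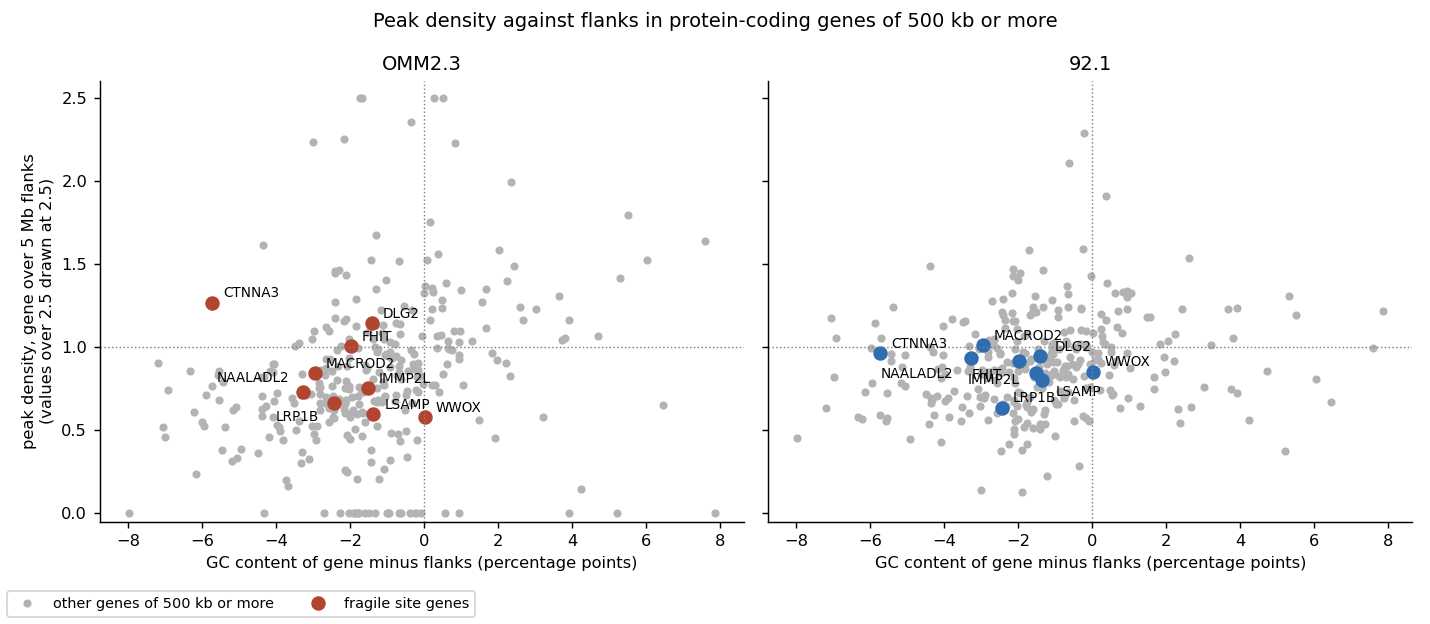
Ratio of peak density in a gene to that of its 5 Mb flanks (vertical) against GC content of the gene minus that of its flanks in percentage points (horizontal), for protein-coding genes of 500 kb or more in OMM2.3 (left) and 92.1 (right). The 9 fragile site genes (large, named) lie among the other genes (gray), at ratios between 0.576 and 1.27 in OMM2.3 and between 0.634 and 1.01 in 92.1.

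A second list of long genes at fragile or break-prone sites also held fewer peaks than its flanks gave. DAB1, IL1RAPL1, DMD, NBEA, RORA, CNTNAP2, DPYD, CCSER1, PDE4D and AUTS2 together held 159 peaks in OMM2.3, a ratio to the flanks of 0.798 (0.674 to 0.940), and 446 in 92.1, a ratio of 0.823 (0.745 to 0.908). Of these 10 genes, 8 were at or below 0.8 in OMM2.3 and 6 in 92.1. DAB1 alone reached 1.2 in OMM2.3, at 1.22 (0.912 to 1.62) with 60 peaks, and none of the 10 did in 92.1. IL1RAPL1, on the X chromosome, held 0 peaks in OMM2.3, and its flanks held 1.3 peaks per Mb.

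The density of a gene followed that of its surroundings. Across the 9 genes it ran from 1.79 to 30.5 peaks per Mb in OMM2.3, a 17.1-fold range, while the ratio to the flanks had a 2.198-fold range. In 92.1 the density ran from 13.1 to 53.8 peaks per Mb, a 4.10-fold range, and the ratio had a 1.60-fold range. The rank correlation of the density of a gene with that of its flanks was 0.733 in OMM2.3 and 0.933 in 92.1 over 9 genes. Gene and flank values came from the same library, so library depth is common to both. Copy number need not be the same in a gene and its flanks. Copy number in the 2 lines was not measured here, and more DNA and more A3B per copy cannot be told apart in these lists.

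**Figure D3:**
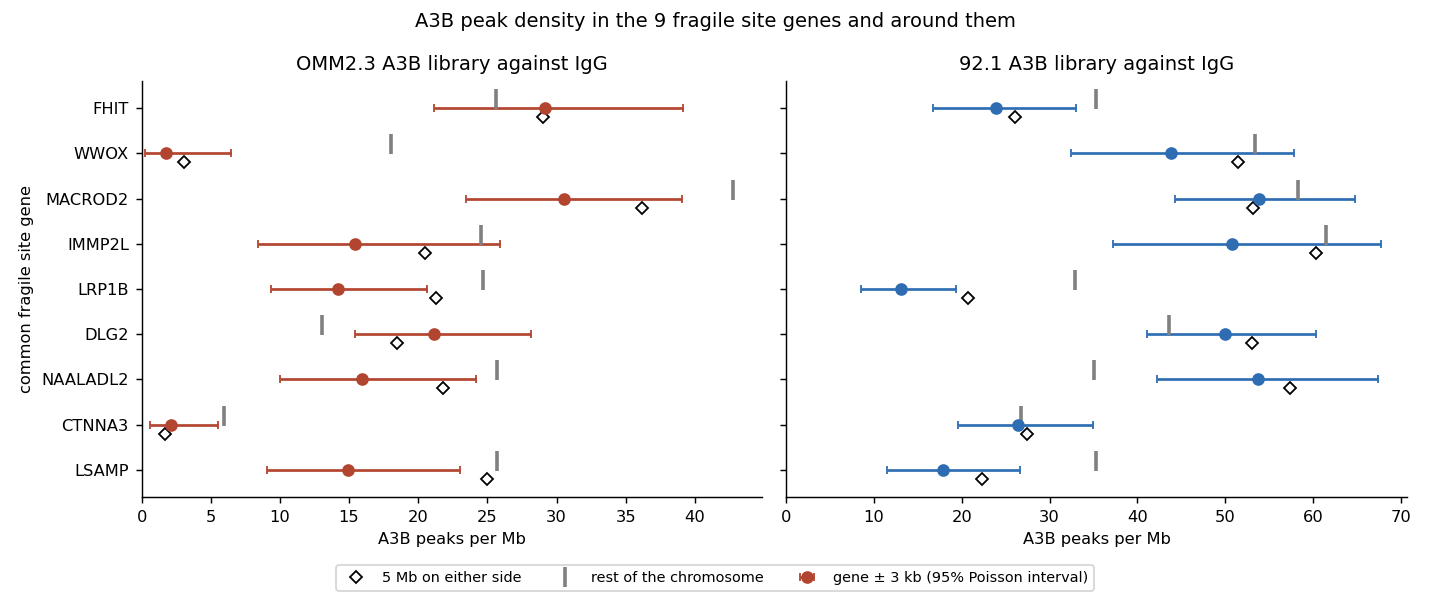
Peaks per Mb in each gene with 3 kb at both ends (filled circles, 95% Poisson interval), in the 5 Mb on either side (open diamonds) and in the rest of the chromosome (gray bars), in OMM2.3 (left) and 92.1 (right). WWOX and CTNNA3 lie near 0 with their flanks in OMM2.3, at 1.79 and 2.15 peaks per Mb, and at 43.8 and 26.4 in 92.1.

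The order of the genes differed between the lines. In OMM2.3 it ran from MACROD2 (30.5 peaks per Mb) through FHIT (29.1), DLG2 (21.1), NAALADL2 (15.97), IMMP2L (15.5), LSAMP (14.9) and LRP1B (14.2) to CTNNA3 (2.15) and WWOX (1.79). The Poisson intervals of neighbours in this order overlapped except at the step from LRP1B (9.34 to 20.6) to CTNNA3 (0.587 to 5.51). In 92.1 it ran from MACROD2 (53.8) through NAALADL2 (53.7), IMMP2L (50.8), DLG2 (50.02), WWOX (43.8), CTNNA3 (26.4), FHIT (23.8) and LSAMP (17.9) to LRP1B (13.1), and the intervals of all neighbours overlapped. MACROD2 was first in both lines, and WWOX was last in OMM2.3 and in the middle in 92.1.

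FHIT and WWOX are regarded as tumour suppressors, and both are among the sites most often broken in cultured cells. FHIT (chr3:59747277-61251459, minus strand, 1.504 Mb) encodes a hydrolase of diadenosine polyphosphates. It held 44 peaks in OMM2.3, or 29.1 per Mb against 29 in its flanks, a ratio of 1.005 (0.714 to 1.38). In 92.1 it held 36, or 23.8 per Mb against 26, a ratio of 0.917 (0.628 to 1.303). FHIT differed from its surroundings by less than the counting error in both lines. The rest of chromosome 3 held 25.6 peaks per Mb in OMM2.3 and 35.2 in 92.1, and FHIT stood at 1.14 (0.825 to 1.53) and 0.677 (0.474 to 0.938) times these, intervals that overlap.

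WWOX (chr16:78099400-79212667, plus strand, 1.11 Mb) encodes an oxidoreductase with WW domains. It held 2 peaks in OMM2.3, or 1.79 per Mb (95% Poisson interval, 0.216 to 6.45), and 49 in 92.1, or 43.8 per Mb (32.4 to 57.9). The flanks showed the same contrast, with 3.1 peaks per Mb in OMM2.3 and 51.4 in 92.1, so the ratio to the flanks was 0.576 (0.0668 to 2.27) in OMM2.3 and 0.852 (0.622 to 1.14) in 92.1. In OMM2.3 the rest of chromosome 16 held 18.0 peaks per Mb, and WWOX was at 0.0993 (0.0120 to 0.359) of that. The sparse stretch in OMM2.3 therefore reached beyond the gene into both flanks, which held 3.6 and 2.6 peaks per Mb. The 2 WWOX peaks of OMM2.3 both lay on the 5′ side of its midpoint, and the last 579.0 kb (52.0% of the gene) held none.

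In 92.1, WWOX was 1 of 2 fragile site genes with a peak at its canonical start. This peak (chr16:78099248-78099513) had its summit at −0.284 kb from the canonical start, 5 fragments and a −log10 p of 3.52. Its 101 bases shown above had 59.4% GC and 7 CG dinucleotides.

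MACROD2 and IMMP2L encode enzymes. MACROD2 (chr20:13995369-16053197, plus strand, 2.06 Mb) removes ADP-ribose from proteins, a step of the response to DNA damage. It held the most peaks of the 9 genes in both lines. In OMM2.3 there were 63, or 30.5 per Mb against 36.2 in its flanks and 42.7 in the rest of chromosome 20, and the ratio to the flanks was 0.843 (0.635 to 1.104). In 92.1 there were 111, or 53.8 per Mb against 53.2 in its flanks and 58.2 in the rest of the chromosome, with a ratio to the flanks of 1.01 (0.816 to 1.24). Neither ratio differed from 1 beyond counting error, although in OMM2.3 the density was below that of the rest of chromosome 20, at 0.714 (0.547 to 0.917). Against the chromosome weighted to its GC content it was at 0.894 (0.687 to 1.14), an interval that takes the expected count as fixed and includes 1.

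MACROD2 also held a peak within 3 kb of its start in each line, and the 2 did not overlap. The OMM2.3 peak (chr20:13996028-13996381) had its summit in the first intron, 0.604 kb from the canonical start, with a −log10 p of 2.22. The sequence shown above held 12 CG dinucleotides. The 92.1 peak (chr20:13995069-13995378) had its summit at −0.347 kb from the start with a −log10 p of 3.52. Both overlapped an exon of the neighbouring gene SEL1L2, so the 2 genes cannot be told apart there.

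The highest −log10 p of the fragile site peaks of OMM2.3 was 5.09, in intron 8 of MACROD2, at a summit with 10 fragments. Another peak of the same intron, at chr20:15541832-15542084, was the third highest, with a −log10 p of 4.8 and 10 fragments. None of the 32-base words around its summit was repeated, whereas some were at the highest peak and at the second highest, in LRP1B. The third highest overlapped a 92.1 peak (chr20:15541867-15542089, −log10 p 1.61, 4 fragments) with summits 15 bases apart. Its q was 0.523, so it did not pass a q of 0.05 in OMM2.3, and the 92.1 peak was near the authors' lower limit.

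IMMP2L (chr7:110662644-111562517, minus strand, 0.900 Mb) encodes a subunit of the peptidase of the mitochondrial inner membrane. It held 14 peaks in OMM2.3, or 15.5 per Mb against 20.5 in its flanks, a ratio of 0.754 (0.405 to 1.29). In 92.1 it held 46, or 50.8 per Mb against 60.3, a ratio of 0.842 (0.610 to 1.14). Both ratios were below 1 by less than the counting error. Its peaks divided evenly between the 5′ and 3′ sides of its midpoint, 7 and 7 in OMM2.3 and 23 and 23 in 92.1.

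LRP1B is a receptor, and it was the only one of the 9 whose ratio lay below 1 beyond counting error in both lines. LRP1B (chr2:140231423-142131016, minus strand, 1.90 Mb) belongs to the low-density lipoprotein receptor family. It held 27 peaks in OMM2.3, or 14.2 per Mb against 21.3 in its flanks, a ratio of 0.665 (0.428 to 0.995). In 92.1 it held 25, or 13.1 per Mb against 20.7, a ratio of 0.634 (0.401 to 0.962). It had the lowest GC content of the 9, at 34.8% against 37.3% in its flanks. With GC-weighted flanks the ratio was 0.960 (0.633 to 1.40) in OMM2.3 and 0.656 (0.425 to 0.968) in 92.1. The interval included 1 in OMM2.3 and lay below 1 in 92.1. These weighted intervals take the expected count as fixed and leave out the counting error of the flanks, unlike the plain ones. Of the 322 long genes, 34.2% had a lower plain ratio in OMM2.3 and 15.2% in 92.1.

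The highest −log10 p in LRP1B was 4.83 in OMM2.3, with 9 fragments, and 3.52 in 92.1.

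DLG2 and CTNNA3 encode proteins of cell contacts. DLG2 (chr11:83455012-85628335, minus strand, 2.17 Mb) is a scaffold of the synapse. It held 46 peaks in OMM2.3, or 21.1 per Mb against 18.4 in its flanks, a ratio of 1.14 (0.810 to 1.59), and 109 in 92.1, or 50.02 per Mb against 53.0, a ratio of 0.943 (0.760 to 1.16). Its flanks were unequal in OMM2.3. The flank on its 3′ side held 30.2 peaks per Mb and that on its 5′ side 6.63, and the gene lay between them, whereas in 92.1 they held 44 and 62.1. Within the gene the order was the other way round in OMM2.3, with 31 peaks on the 5′ side of the midpoint and 15 on the 3′ side, and in 92.1 the sides held 59 and 50. Against the rest of chromosome 11, DLG2 was the one gene above 1 beyond counting error in OMM2.3, at 1.62 (1.18 to 2.17), and its flanks were at 1.42. Against the chromosome weighted to its GC content it was at 2.89 (2.11 to 3.85).

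DLG2 held 3 of the 4 coding-exon peaks of the 9 genes, all in 92.1. They lay in exons 12, 10 and 8, with 4 or 5 fragments and −log10 p from 2.68 to 3.52. DLG2 also held 2 of the 6 sites where the lines overlapped, both in intron 6. The stronger (chr11:84829033-84829295) had a −log10 p of 3.94 and 8 fragments in OMM2.3 and a −log10 p of 2.68 and 4 fragments in 92.1, and its 101 bases had 23.8% GC.

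CTNNA3 (chr10:65912457-67763637, minus strand, 1.85 Mb) encodes alpha-T-catenin, which links cadherins to actin. It held 4 peaks in OMM2.3, or 2.15 per Mb (0.587 to 5.51) against 1.70 in its flanks, a ratio of 1.27 with an interval of 0.310 to 3.88. In 92.1 it held 49, or 26.4 per Mb against 27.4, a ratio of 0.963 (0.695 to 1.31). The OMM2.3 ratio was the highest of the 9 and rested on 4 peaks with 4 or 5 fragments each. In that line the rest of chromosome 10 held 5.97 peaks per Mb, and CTNNA3 was at 0.361 (0.0981 to 0.928) of that, with its flanks at 0.285. CTNNA3 in OMM2.3 had the longest stretch without a peak in the 9 genes, 588.8 kb.

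NAALADL2 and LSAMP lie with FHIT on chromosome 3. NAALADL2 (chr3:174438573-175810548, plus strand, 1.37 Mb) encodes a protein related to glutamate carboxypeptidase. It held 22 peaks in OMM2.3, or 15.97 per Mb against 21.8 in its flanks, a ratio of 0.732 (0.4496 to 1.14). In 92.1 it held 74, or 53.7 per Mb against 57.4, a ratio of 0.936 (0.724 to 1.19). It was within counting error of its flanks in both lines, and in 92.1 it stood at 1.53 (1.203 to 1.93) times the rest of chromosome 3, with flanks at 1.64 times.

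LSAMP (chr3:115802374-117139389, minus strand, 1.34 Mb) encodes a cell adhesion protein of neurons. It held 20 peaks in OMM2.3, or 14.9 per Mb against 25, a ratio of 0.596 (0.358 to 0.940), the only interval below 1 in that line beside that of LRP1B. The GC-weighted ratio in OMM2.3 was 0.640 (0.391 to 0.988). This interval takes the expected count as fixed, unlike the plain one, so it cannot settle whether LSAMP stayed below 1 beyond counting error. In 92.1 it held 24, or 17.9 per Mb against 22.3, a ratio of 0.801 (0.503 to 1.22).

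The 3 genes of chromosome 3 differed among themselves in 92.1 as their surroundings did. Their densities of 23.8 (FHIT), 17.9 (LSAMP) and 53.7 (NAALADL2) per Mb went with flanks of 26, 22.3 and 57.4. In OMM2.3 the densities were 29.1, 14.9 and 15.97 per Mb and those of the flanks 29, 25 and 21.8, so LSAMP was below NAALADL2 although its flanks were denser.

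The strongest fragile site peak of 92.1 lay in NAALADL2 (chr3:174750222-174750505), with a −log10 p of 5.40, 7 fragments and a q of 0.212. It lay 109 kb upstream of the canonical start, inside the part of the gene that only longer transcripts cover, and none of its 32-base words was repeated. A further 19 peaks of 92.1 tied at a −log10 p of 4.43 with 6 fragments each, 5 of them in MACROD2 and 5 in DLG2. NAALADL2 also held the fourth coding-exon peak, in exon 2.

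Between the lines, peak counts in most genes differed in the direction of the flanks, and LSAMP was the exception. WWOX had 24.5 times as many peaks in 92.1 as in OMM2.3, and its flanks had 16.6 times as many. FHIT and LRP1B had fewer, at 0.818 and 0.926 times, with flanks at 0.897 and 0.972 times. LSAMP had 1.2 times as many, while its flanks had 0.892 times as many. MACROD2, DLG2, IMMP2L and NAALADL2 had 1.76, 2.37, 3.29 and 3.36 times as many, with flanks at 1.47, 2.88, 2.94 and 2.63 times. CTNNA3 had 49 against 4, with flanks at 16.1 times. These are ratios of 1 library to 1 library and carry no test. They were not scaled to the size of the lists, which held 135327 peaks in 92.1 and 55486 in OMM2.3 over all chromosomes.

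The peaks ran along most of the length of the genes, except WWOX and CTNNA3 in OMM2.3. The 5′ side of the midpoints held 129 of the 242 peaks inside gene bodies in OMM2.3, or 53.3% (Wilson interval, 47.0 to 59.5), and 271 of 518 in 92.1, or 52.3% (48.0 to 56.6). In 100 kb bins the variance of the counts was near their mean, with a median ratio of 0.900 in OMM2.3 and 1.01 in 92.1, where independent counts at an even rate give about 1. The ratio ran from 0.516 (IMMP2L) to 1.44 (FHIT) in OMM2.3, and IMMP2L was also lowest (0.316) and LSAMP highest (1.61) in 92.1. Most peaks were intronic, 220 of 242 in OMM2.3 and 473 of 523 in 92.1. Peaks that overlapped an exon of a canonical transcript by any base numbered 1 and 6. Such exons make up 0.508% of the bases of these transcripts, which is not the share of peaks expected to touch one.

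**Figure D4:**
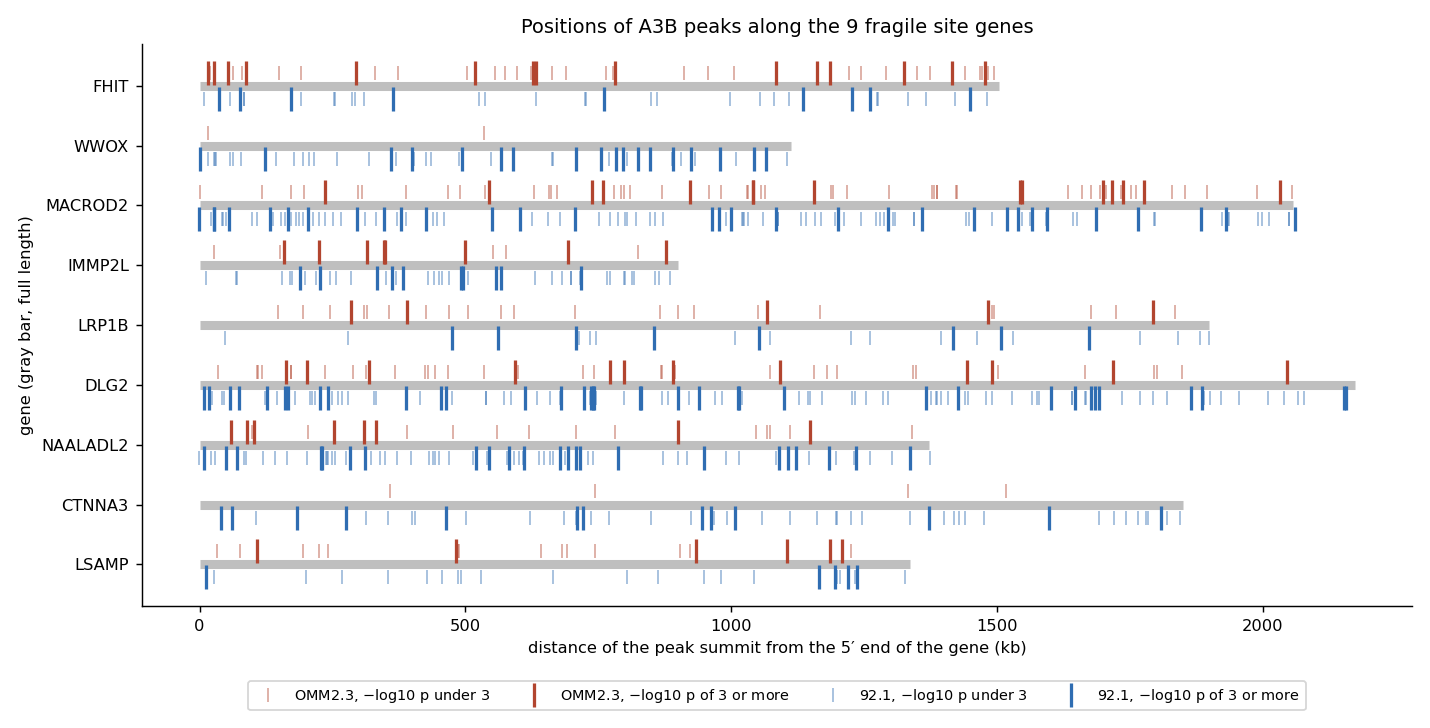
Summits of A3B peaks by distance in kb from the 5′ end of each gene (gray bar), with OMM2.3 above the bar and 92.1 below it. Tall marks have a −log10 p of 3 or more, short marks less. The marks run along the whole length of most genes, with 2 OMM2.3 peaks in WWOX and 4 in CTNNA3.

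The fragile site peaks rested on little signal, as did most peaks of both lists. None of the 242 or 523 reached a q of 0.05 in its line, and over all chromosomes 235 of 55486 peaks in OMM2.3 and 205 of 135327 in 92.1 did. The median −log10 p was 2.34 in OMM2.3 and 2.68 in 92.1, both in the 9 genes and over all chromosomes. A −log10 p of at least 3 was reached by 69 peaks (28.5%, Wilson interval 23.2 to 34.5) in OMM2.3 and 153 (29.3%, 25.5 to 33.3) in 92.1, against 31.1% and 27.5% of all peaks.

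The number of A3B fragments behind a peak could be recovered as a whole number from its deposited fold and p, given a scaling for the library. Doubled counts at a smaller scaling would fit as well, and the lower counts were taken. Fragile site peaks rested on 4 to 10 fragments in OMM2.3, with a median of 5.50, and on 3 to 7 in 92.1, with a median of 4. Over all chromosomes the medians were 6 and 4. At least 8 fragments stood behind 16 peaks in OMM2.3 (6.61%, 4.11 to 10.5) and 0 in 92.1 (upper limit 0.729%), against 11.2% and 1.11% of all peaks and 7.01% and 0.161% of peaks in the flanks. The IgG background at the summit was at the lowest level the caller used in 41.7% of the fragile site peaks in OMM2.3 and 68.5% in 92.1, against 37.2% and 56.5% in the flanks and 37.7% and 41.1% over all chromosomes. At MACROD2 in OMM2.3, only 11.1% of peaks had that lowest background, and at WWOX and CTNNA3 all 2 and 4 did.

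**Figure D5:**
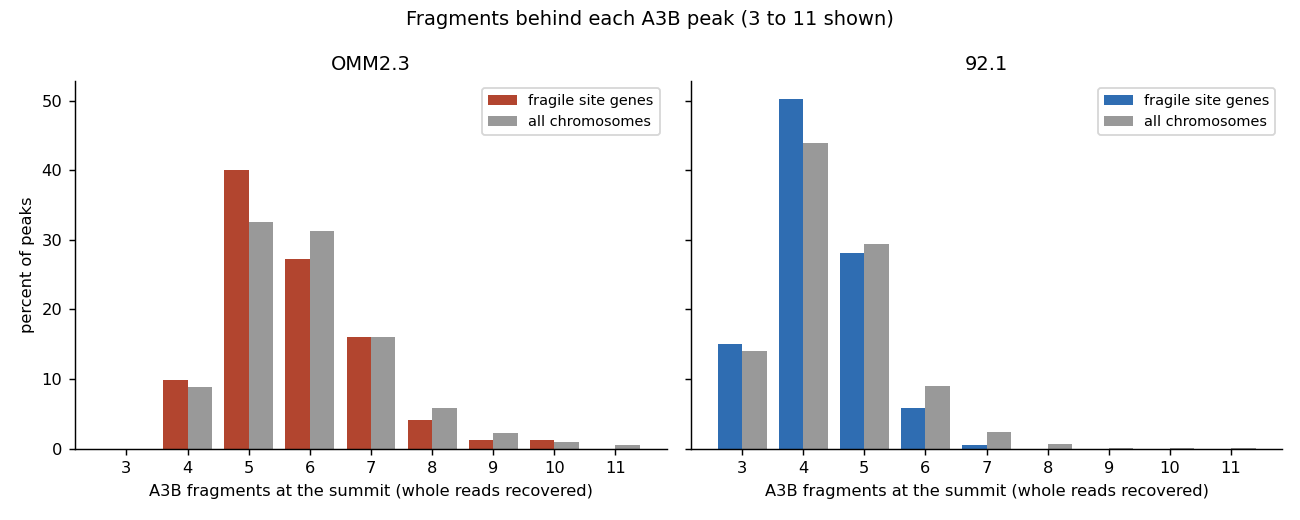
Share of peaks (percent) by the number of A3B fragments at the summit, for fragile site genes (coloured) and all chromosomes (gray), in OMM2.3 (left) and 92.1 (right). Fragile site peaks have a median of 5.50 fragments in OMM2.3 and 4 in 92.1, and few have 8 or more.

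The 2 lines shared few sites in the fragile genes. In OMM2.3, 6 of 242 peaks overlapped a 92.1 peak by at least 1 base, or 2.48% (Wilson interval, 1.14 to 5.30), against 2.26% (1.66 to 3.06) in the flanks and 3.62% over all chromosomes. MACROD2 and DLG2 held 2 each, FHIT and NAALADL2 1 each, and all 6 lay in introns. In none did both lines reach a −log10 p of 3. WWOX, IMMP2L, LRP1B, CTNNA3 and LSAMP shared 0 of their 2, 14, 27, 4 and 20 OMM2.3 peaks. The closest pair after that of MACROD2 lay in intron 2 of NAALADL2, with summits 23 bases apart and −log10 p of 2.298 and 3.52.

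Summits were richer in GC than the genes around them. In the 100 bases on either side of a summit the mean GC content was 41.4% ± 0.472 (SE, n = 242 peaks) in OMM2.3 and 38.3% ± 0.315 (SE, n = 523 peaks) in 92.1, above that of the windows by 4.21 percentage points (95% interval, 3.28 to 5.13) and 0.954 (0.337 to 1.57). The excess was above 0 in all 9 genes in OMM2.3, from 2.02 points in LSAMP to 6.62 in CTNNA3, where 4 peaks were averaged. In 92.1 it ran from −0.537 in NAALADL2 to 2.02 in MACROD2, and 7 of 9 genes were above 0. Peaks of 1 library share its amplification, and the part of GC-dependent read recovery in this excess was not tested.

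TC and GA dinucleotides, the preferred substrate of A3B, were 121.7 per kb at OMM2.3 summits and 117.6 at 92.1 summits, against 116.5 and 116.4 in the windows. The ratios were 1.05 (1.02 to 1.07) and 1.01 (0.992 to 1.03). Against positions of the same genes at equal GC content they were 1.00 (0.980 to 1.03) and 0.998 (0.981 to 1.01). Once GC content was matched, no excess of TC and GA was detectable at the summits.

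Long runs of alternating A and T can stall replication and occur at fragile sites. Runs of at least 12 AT or TA units, spelled ATATAT and so on, numbered 96 in the windows, or 6.73 per Mb against 5.09 in the flanks. The longest, of 74 bases, lay in WWOX, and NAALADL2 had the most per Mb, 11.6. IMMP2L and LSAMP had fewer runs per Mb than their flanks, 2.21 against 6.8 and 2.98 against 4.3. None of the 242 or 523 peaks overlapped such a run, and the runs are too few and short for this to say whether peaks avoid them. Within 1 kb of a run lay 4 peaks in OMM2.3 (1.65%, Wilson interval 0.645 to 4.17) and 6 in 92.1 (1.15%, 0.527 to 2.48), while 1.32% of the window bases did, a value inside both intervals. Reads from such runs are hard to place, and their recovery was not tested.

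Repeated sequence was more common at the peaks of both lines than in the genes as a whole, although in 92.1 the intervals overlapped. At least 50% of 32-base words around the summit occurred elsewhere in the genome in 31 of 242 peaks in OMM2.3 (12.8%, Wilson interval 9.17 to 17.6) and in 56 of 523 in 92.1 (10.7%, 8.34 to 13.7). Among 7131 positions spaced evenly through the windows the share was 7.97% (7.36 to 8.62), a value below the intervals of both lines. By gene it was highest at CTNNA3 in both lines, with 1 of 4 and 8 of 49 peaks, and CTNNA3 also had the highest share among evenly spaced positions, 11.7%.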

How the data were processed

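A3B and IgG ChIP-seq libraries of OMM2.3 and 92.1 (1 each per line, 4 in all) were grouped by their labels. Per the study's methods and the submitters' processing notes, the authors ran FastQC 0.11.9 on the paired-end reads, used Bowtie2 2.2.5 for alignment to GRCh38 and Sambamba against PCR duplicates, and called A3B peaks over the IgG of the line with MACS2 2.2.7.1 at p of 0.05. Filters on mapping quality and excluded regions and the total reads per library are not given in the sources used here. The deposited columns were a score (the integer part of 10 times −log10 p), a fold enrichment ratio over local IgG background, and the −log10 p and −log10 q of the authors' caller, all at the summit. No replicate existed, so no test between lines was made.

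Gene bodies came from GENCODE 44 and were extended by 3 kb, and gaps in the assembly were left out of lengths. Expected counts were each gene's flank (5 Mb on either side) or chromosome density times its length, summed over genes. Plain ratio intervals are exact conditional binomial, density intervals exact Poisson and share intervals Wilson, all at 95%. GC-weighted ratio intervals are exact Poisson with the expected count taken as fixed. GC weighting divided the reference 10 kb bins into 10 classes of equal number. Peaks from regions with few reads rest on few fragments, and fragments were recovered (tolerance 0.002 in −log10 p) for 99.7% of OMM2.3 and 99.95% of 92.1 peaks, with an A3B scaling of 0.867 and 1. Sequence intervals are the mean ± a normal interval over peaks. Words of 32 bases were counted on both strands of the genome. The ratio was tested on simulated peaks with planted densities. Python 3.11 with numpy, pandas and scipy was used.

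The 9 genes, the second gene list and all rules were chosen with earlier results of these data known. All 9 genes are named, as are the 3 peaks of highest −log10 p per line with ties, shared peaks of −log10 p of at least 3 in both lines (there were 0), and the second list, of which some genes, like some peak sequences, are not reported here. Peaks at exons, at starts and shared sites below that limit, and their sequences, were chosen after their values were seen. Alternatives covered p and q thresholds, gene extent, flank width, summit position, covered bases, GC weighting, genic and intergenic flanks, the overlap rule, summit windows and leaving out each gene.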

Additional observations from a re-analysis of the deposited data

How the results depend on the processing

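The lower density in the fragile site genes changed under GC weighting and at strict thresholds, which left few peaks. Of 71 alternatives over 13 results, 54 gave values within the main interval (or within 1.5 times a count), 15 moved and 2 reversed. With flanks weighted to the GC content of each gene, the OMM2.3 ratio went from 0.840 to 1.00, while that of 92.1 was 0.946. The OMM2.3 value counts as reversed only because it lay just above 1, at 1.0017 (0.880 to 1.14), which is no difference from the flanks. With chromosomes weighted in the same way the ratios were 0.986 in OMM2.3 and 0.970 in 92.1. At p of at most 1e-05 only 1 peak was left in the 9 genes in each line, and the ratio to the flanks became 1.77 in OMM2.3, which reversed it, and 0.293 in 92.1, and the ratio to the chromosomes 0.607 and 0.192. At q of at most 0.05 no fragile site peak was left and all 4 ratios were 0, where the flanks gave 0.206 and 0.392 peaks. At a −log10 p of at least 3, no gene was at 1.2 times its flanks in OMM2.3, so a count of 0, 3 genes were at or below 0.8 in 92.1, and the TC and GA ratio in OMM2.3 was 1.01. With flanks of 2 Mb, 3 genes in OMM2.3 were at or below 0.8. The share of OMM2.3 peaks that overlapped a 92.1 peak was 0 at a −log10 p of at least 3, with 69 peaks, and 0 at p of at most 1e-05. The causes were not tested beyond the weighting and the fewer peaks. Leaving out each gene in turn gave ratios to the flanks of 0.791 to 0.872 in OMM2.3 and 0.883 to 0.928 in 92.1, and to the chromosomes of 0.659 to 0.786 and 0.826 to 0.941.

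Single genes with 2 or 4 peaks (WWOX and CTNNA3 in OMM2.3) allow wide ranges, and depth in reads was not known. No paired analysis was possible because the groups hold single libraries.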
